A study of Mus musculus with 12 samples.

Results

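Fibromodulin (Fmod) and its relatives, the small leucine-rich proteoglycans decorin (Dcn), biglycan (Bgn), lumican (Lum), osteoglycin (Ogn), prolargin (Prelp) and asporin (Aspn), were followed in primary mouse adult fibroblasts (MAFs) exposed to thymol. The 7 genes were taken by symbol, and they were selected on the thymol minus DMSO differences of these same libraries, so those differences are a description here and carry no test. Of the 7 genes, 5 were among the 10697 genes of the expression table, and Lum and Ogn were not analysed here. The MAFs were grown out of tissue biopsies from wild-type C57BL6/j mice. In the thymol group, 6 libraries came from cells given 100 µM thymol, a phenolic monoterpene dissolved in DMSO, for 24 h, and in the DMSO group 6 libraries came from cells given an equal volume of the solvent alone. Nothing in the labels ties a library to an animal or to a separate culture, so every p-value below measures only the spread between these libraries, which may be technical.

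Small leucine-rich proteoglycans are secreted proteins of the extracellular matrix whose core is a curved stack of leucine-rich repeats. They bind fibrillar collagen and govern how fibrils assemble and how thick they become, and several of them bind TGF-beta and hold it in the matrix. In connective tissue, fibroblasts are their main source, and Dcn and Bgn carry chondroitin or dermatan sulfate chains while Fmod and Lum carry keratan sulfate.

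QuantSeq, the assay used, reads mRNA from its 3′ end, and a transcript gives about 1 read whatever its length, so the levels of different genes can be set side by side. Levels are in log2 CPM, the logarithm of scaled reads with a small prior count added. Each library held between 5435985 and 9049796 reads over the listed genes. The deepest and the shallowest library were both in the thymol group, where the median was 6132733.5 reads against 6949061.5 in the DMSO group. The cell label was checked against marker genes. Of 12 fibroblast markers outside the matrix, 8 were in the table (among them Pdgfrb, Thy1 and Prrx1), and their mean level was 6.02 ± 0.063 log2 CPM in the DMSO group and 6.00 ± 0.034 in the thymol group (SD, n = 6). All 15 macrophage markers were in the table as well. Because the lists hold different genes, their means do not weigh one cell type against the other. The macrophage mean ranged from 8.41 to 8.47 over the DMSO libraries and from 8.41 to 8.53 over the thymol libraries. The cultures labelled as fibroblasts therefore also held abundant macrophage transcripts, among them Lyz2, which codes for lysozyme, at 13.6 log2 CPM with DMSO. In such bulk RNA, fewer cells of one type and less RNA per cell cannot be told apart.

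Upstream sequences are shown for Fmod and Prelp, the pair of neighbours on chromosome 1 with the 2 lowest thymol minus DMSO differences of the family, and for Bgn, its most abundant member. Each is the stretch of 250 bases before the RefSeq start of the gene in GRCm38.p6, read 5′ to 3′ on the strand of the gene. The windows are chr1:134037004-134037253 (plus strand) for Fmod, chr1:133921402-133921651 (minus strand) for Prelp and chrX:73483351-73483600 (plus strand) for Bgn. Capitals mark GC boxes, found as GGGCGG on either strand.
Fmod: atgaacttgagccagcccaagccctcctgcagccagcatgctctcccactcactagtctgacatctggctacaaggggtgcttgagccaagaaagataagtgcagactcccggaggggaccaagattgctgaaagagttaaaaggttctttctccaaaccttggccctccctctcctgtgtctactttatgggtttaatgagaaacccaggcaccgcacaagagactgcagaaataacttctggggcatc
Prelp: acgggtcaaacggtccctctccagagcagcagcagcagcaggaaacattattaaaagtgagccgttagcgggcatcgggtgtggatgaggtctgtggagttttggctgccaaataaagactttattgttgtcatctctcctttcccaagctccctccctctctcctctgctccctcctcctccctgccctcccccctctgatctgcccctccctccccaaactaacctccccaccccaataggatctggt
Bgn: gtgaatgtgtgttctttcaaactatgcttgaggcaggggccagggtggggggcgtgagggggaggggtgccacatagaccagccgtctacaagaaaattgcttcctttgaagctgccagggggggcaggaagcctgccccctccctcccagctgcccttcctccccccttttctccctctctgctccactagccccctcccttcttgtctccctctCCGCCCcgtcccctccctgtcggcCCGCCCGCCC

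RefSeq windows could be matched for 5 of the 7 genes, Fmod, Prelp, Bgn, Aspn and Ogn. The Fmod and Prelp windows held none of the 4 motifs searched on both strands, which were the TATA box TATAAA, the AP-1 site TGANTCA, the SMAD box CAGACA and the GC box GGGCGG. The Bgn window held 3 GC boxes, 2 of which overlapped, in a sequence of 64.4% G and C, and the Aspn window held 2 TATA boxes in the most AT-rich of these windows. Fmod and Prelp, at 51.2% and 55.6%, lay near the median of 52.4% over all windows. Across the 32851 upstream windows of the same length, the GC box was found in 32.7%, the SMAD box in 17.1%, the TATA box in 12.4% and the AP-1 site in 6.75%. A match says only that these letters are present in the window.

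In the GENCODE annotation of GRCm38, Fmod (ENSMUSG00000041559.7) spans bases 134037254 to 134048277 of chromosome 1 on the plus strand, and no other gene overlaps it. Prelp (ENSMUSG00000041577.5) spans bases 133910304 to 133921414 of the same chromosome on the minus strand. A gap of 115839 bases with 0 protein-coding genes separates the pair. Prelp is overlapped by the antisense gene Gm15851. The strand setting of the read counting was not given in the sources used here, so whether reads of Prelp and Gm15851 were kept apart is not known. Dcn (ENSMUSG00000019929.16) spans bases 97479609 to 97518143 of chromosome 10, beside Lum, and Bgn (ENSMUSG00000031375.17) spans bases 73483602 to 73495933 of chromosome X. Aspn (ENSMUSG00000021388.14) spans bases 49544443 to 49567565 of chromosome 13, in the cluster that also holds Ecm2, Omd and Ogn, and lies within Cenpp on the opposite strand. Cenpp, a centromere protein gene, itself had a mean of 2.46 log2 CPM in DMSO libraries and 2.37 in thymol libraries, so the same limit applies to Aspn.

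The family was dominated by Bgn. In DMSO-treated MAFs the summed level of the 5 genes was 3002 ± 74.4 CPM (SD, n = 6), of which Bgn made up 86.2% ± 0.83 (SD, n = 6). The mean level of Bgn lay at percentile 99.7 of all genes, that of Dcn at 96.1, that of Prelp at 66.5, that of Fmod at 18.8 and that of Aspn at 13.1. Fmod, the gene with the lowest difference between treatments, was thus one of the family's scarce transcripts, and it made up 0.362% ± 0.063 (SD, n = 6) of the sum.

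The genes were ranked by their mean level with DMSO, and neighbours in that order were compared within each library. The pairs and their directions come from ranking these same 6 libraries, so the differences are a description with no test. Bgn exceeded Dcn by 2.93 ± 0.11 log2 units (SD, n = 6), or 7.63-fold, in 6 of 6 libraries. Dcn exceeded Prelp by 2.61 ± 0.11 log2 units and Prelp exceeded Fmod by 2.34 ± 0.23 log2 units (SD, n = 6), again in 6 of 6 libraries each. Fmod and Aspn did not differ beyond their spread: Fmod was the higher of the pair in 4 of 6 libraries, by 0.42 ± 0.55 log2 units (SD, n = 6). With thymol the order of the first 3 genes was the same, while Aspn stood above Fmod in 5 of 6 libraries, by 0.55 ± 0.67 log2 units (SD, n = 6).

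**Figure D1:**
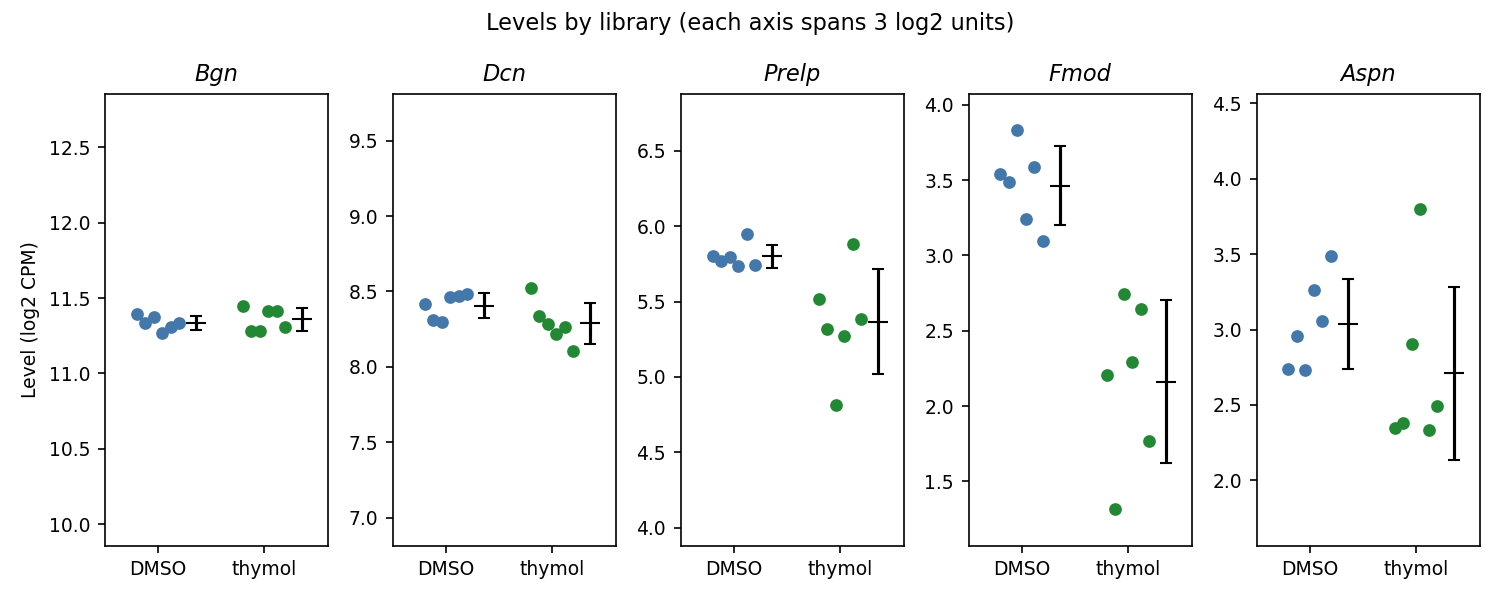
Level of each of the 5 genes in log2 CPM (vertical axis) in the 6 DMSO and 6 thymol libraries (points, with the mean and SD of each group). The groups are apart for Fmod, where the lowest DMSO library lies at 3.09 and the highest thymol library at 2.74, and overlap for the other 4 genes.

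Fmod, a collagen-binding keratan sulfate proteoglycan that shapes fibrils in tendon, skin and cartilage, was lower in every thymol library than in any DMSO library. With DMSO its lowest, median and highest levels were 3.09, 3.51 and 3.83 log2 CPM. With thymol they were 1.32, 2.25 and 2.74 log2 CPM. The gap between the lowest DMSO library and the highest thymol library was 0.35 log2 units. In reads, DMSO libraries held 58 to 112 of Fmod (median 74.5) and thymol libraries 13 to 54 (median 27.5). The gene was therefore present but scarce in all 12 libraries, and it reached 30 reads in 6 DMSO libraries but in only 2 thymol libraries. The authors' filter of 30 reads in at least 6 samples was also stated as a CPM threshold, which this count of raw reads does not apply. Its mean level was 10.9 ± 2.01 CPM in the DMSO group against 4.44 ± 1.61 CPM in the thymol group (SD, n = 6).

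The Fmod difference, thymol minus DMSO, was -1.30 ± 0.26 log2 units (SE from limma), with a 95% interval from -1.81 to -0.79 and a fold change of 0.406. It was the 5th lowest difference of the 10697 genes. That rank is a description, because Fmod was chosen on this contrast and reached 30 reads in 6 DMSO but only 2 thymol libraries. Without the 2 thymol libraries that moved the difference most, taken one at a time, it ran from -1.42 (replicate 3 left out) to -1.13 (replicate 2 left out). Odd-numbered libraries alone gave -1.12 and even-numbered ones -1.48. The spread between thymol libraries was 2.12 times the SD that read counting alone would give, against 1.62 times between DMSO libraries.

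Prelp, a heparin- and collagen-binding protein found in basement membranes, was also lower with thymol, though its groups overlapped. With DMSO its lowest, median and highest levels were 5.74, 5.78 and 5.95 log2 CPM. With thymol they were 4.81, 5.35 and 5.88 log2 CPM, from 178 to 532 reads. In 5 of the 6 thymol libraries Prelp lay below all DMSO libraries, and the exception was thymol replicate 5, the most deeply sequenced library. The difference was -0.43 ± 0.11 log2 units (SE from limma; 95% interval -0.66 to -0.21), a fold change of 0.741. It ran from -0.54 without thymol replicate 5, when the groups no longer overlapped, to -0.32 without thymol replicate 3. The libraries were unequal in spread, with an SD of 0.077 log2 units for DMSO and 0.35 for thymol.

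Dcn, the collagen-fibril proteoglycan that also binds TGF-beta, and Bgn, its closest relative and a ligand of Toll-like receptors when released from the matrix, differed little between treatments. The lowest, median and highest Dcn levels were 8.30, 8.44 and 8.49 log2 CPM with DMSO and 8.11, 8.27 and 8.52 with thymol. Of the thymol libraries, 4 lay below all DMSO libraries for Dcn and 1 lay above them. The Dcn difference was -0.12 ± 0.059 log2 units (SE from limma), with a 95% interval from -0.24 to 0.00052. The lowest, median and highest Bgn levels were 11.27, 11.34 and 11.40 log2 CPM with DMSO and 11.28, 11.36 and 11.45 with thymol. These values rested on 13799 reads or more per library, and their difference was 0.021 ± 0.044 log2 units (SE from limma), with a 95% interval from -0.067 to 0.11.

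Aspn, a relative of Dcn that lacks a glycosaminoglycan chain and binds collagen and TGF-beta, was scarce and variable. With DMSO its lowest, median and highest levels were 2.73, 3.01 and 3.49 log2 CPM, from 48 to 77 reads. With thymol they were 2.33, 2.43 and 3.80 log2 CPM, from 29 to 80 reads. For Aspn, 4 thymol libraries lay below all DMSO libraries, while thymol replicate 4 was the highest of the 12. The difference was -0.33 ± 0.25 log2 units (SE from limma), with a 95% interval from -0.84 to 0.18 that holds 0. It was -0.55 without thymol replicate 4, the library that moved it most.

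Counted over the family, the thymol mean was lower for 4 genes and higher for 1, with a median difference of -0.33 log2 units beside 0.0026 over all genes. In the fit over all genes the limma adjusted p was under 0.05 for 2 of the 5, Fmod and Prelp, both lower. For genes selected on this contrast, these calls are no test. Over all 10697 genes, 2.22% passed in either direction and 1.57% passed lower with thymol. The Fmod call was lost in 1 of 24 alternatives, odd-numbered libraries alone. The Prelp call was lost in 5 of 24. These were the fits without the variance trend, without DMSO replicate 5, without thymol replicate 3, and with odd-numbered or even-numbered libraries alone. Fmod alone had groups that did not overlap, as did 1.16% of all genes with every thymol library lower. Because the genes were selected on this contrast, nothing is read from these counts or from how often the calls were kept.

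The summed level of the 5 genes overlapped between the groups. It was 2995 ± 159 CPM with thymol (SD, n = 6) and ran from 2839 to 3211 CPM, around the DMSO range of 2893 to 3110 CPM. Without Bgn the sum was 414 ± 20.05 CPM in the DMSO group and 367 ± 32.3 CPM in the thymol group (SD, n = 6). The composition shifted within the sum: Bgn made up 87.8% ± 0.73 with thymol, and Fmod made up 0.148% ± 0.054 (SD, n = 6). These sums use the same libraries and contrast that chose the genes and are given as values.

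Fmod was also set against other transcripts of the same library. Relative to Bgn, the level of Fmod was -7.87 log2 units with DMSO and -9.20 with thymol. Relative to Dcn it was -4.94 and -6.13 log2 units, and relative to the mean of the 8 fibroblast markers it was -2.55 and -3.84 log2 units. Against each of these 3 references, all 6 thymol libraries lay below all 6 DMSO libraries. Fmod was chosen on this contrast and these references differed little between treatments, so the separation is largely that of Fmod itself and is given as values. Against Prelp, which was lower itself, the difference was -0.87 log2 units and 5 thymol libraries lay below all DMSO libraries. Against Aspn, the scarcest reference, the difference was -0.97 log2 units and 3 thymol libraries lay below all DMSO libraries. Prelp relative to the fibroblast markers was lower by a difference of -0.42 log2 units, with 5 thymol libraries below all DMSO libraries.

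**Figure D2:**
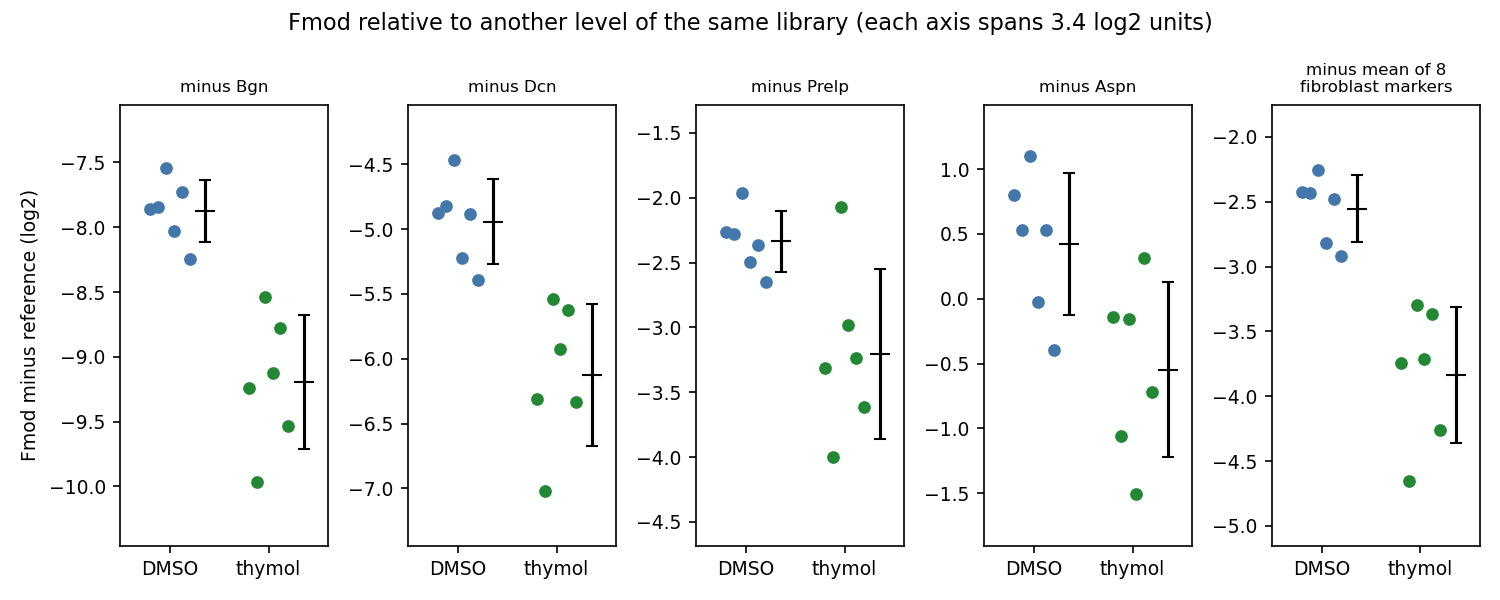
Fmod level minus the level of Bgn, Dcn, Prelp, Aspn or the mean of 8 fibroblast markers in the same library (vertical axes, log2 units), for DMSO and thymol libraries (points, with mean and SD). Against Bgn, Dcn and the markers the 6 thymol points lie below the 6 DMSO points, with mean differences of -1.32, -1.18 and -1.28, while against Prelp (-0.87) and Aspn (-0.97) the groups overlap.

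Markers of other cells were compared beside these differences. The mean of the fibroblast markers differed by -0.016 log2 units (exact permutation p = 0.597, adjusted p = 0.896 over the 3 lists tested), and 0 of its 8 genes passed the limma threshold. The macrophage mean differed by 0.0022 log2 units (exact permutation p = 0.911, adjusted p = 0.911), and 1 of its 15 genes passed, the integrin gene Itgam, at -0.31 (limma adjusted p = 0.000705). The mean of 5 smooth muscle and pericyte markers was 7.33 ± 0.067 log2 CPM in the DMSO group and 7.13 ± 0.26 in the thymol group (SD, n = 6), ranging from 7.23 to 7.40 and from 6.75 to 7.40, a difference of -0.20 (exact permutation p = 0.104, adjusted p = 0.312). Of these 5 genes, 1 passed, the smooth muscle myosin gene Myh11, at -0.37 (limma adjusted p = 0.00696), and it missed the threshold without thymol replicate 6 (-0.27, adjusted p = 0.0645), under robust variance estimates (adjusted p = 0.259), without the variance trend (adjusted p = 0.304) and in odd-numbered libraries alone (adjusted p = 0.423). The Itgam call was lost without the trend (limma adjusted p = 0.0662) and in odd-numbered libraries (adjusted p = 0.306). Among single markers of other tissues, the 1 of 5 skeletal muscle markers analysed, the actin gene Acta1, fell by 0.45 log2 units (limma adjusted p = 5.03e-05). The other skeletal muscle markers listed, Myod1, Myog, Ckm and Pax7, were not analysed here. Sox9, the 1 of 8 tendon and cartilage markers analysed, stood at 5.55 with DMSO and 5.79 with thymol. Of 5 endothelial markers 1 was analysed, Cdh5, at 1.86 in both groups, and of 4 adipocyte markers 1, Fabp4, at 6.38 and 6.63 (limma adjusted p = 0.0687). The 4 keratinocyte markers were not analysed here. The part of these markers in the Fmod and Prelp differences was not tested.

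The genes around the family were read from lists of its partners, enzymes and receptors. These lists were chosen with earlier results of these data known, so no enrichment is read from their counts. Beside their counts stand the 2.22% of all genes that passed in either direction, the 1.57% that passed lower and the median of 0.0026 log2 units. Of the 11 other leucine-rich proteoglycans, 2 were in the table, Podn at -0.42 (limma adjusted p = 0.43) and Tsku at -0.11 (adjusted p = 0.824), and neither passed. Of 33 enzymes that build and sulfate glycosaminoglycan chains, 29 were measured and 0 passed, with a median difference of -0.041 log2 units. The smallest p-values there belonged to the keratan sulfate sulfotransferase Chst1, at 0.30 (limma adjusted p = 0.103), and the uronyl sulfotransferase Ust, at -0.48 (adjusted p = 0.307). Of 19 other proteoglycans, 12 were measured, and 1 passed: Srgn, the intracellular proteoglycan serglycin of blood cells, fell by 0.48 log2 units (limma adjusted p = 0.00698). The Srgn call was lost without the variance trend of the fit (limma adjusted p = 0.134) and in odd-numbered (0.136) or even-numbered (0.178) libraries alone.

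Among the collagens that the family binds, and the proteins that assemble them, 3 of 17 genes measured passed the threshold lower with thymol. Of these genes, 0 passed higher, and the median was -0.16 log2 units. The thymol mean was lower for 13 of the 17 and higher for 4. Col3a1, which codes for type III collagen, fell by 0.54 ± 0.055 log2 units (SE; limma adjusted p = 4.42e-10) with no overlap between groups. Col1a1, a chain of type I collagen, fell by 0.28 ± 0.044 log2 units (SE; limma adjusted p = 2.9e-05), also with no overlap. Col12a1, a collagen on the fibril surface, fell by 0.26 ± 0.060 log2 units (SE; limma adjusted p = 0.00784), with groups that overlapped. The other 14 genes did not pass. Without the variance trend, the limma adjusted p was 0.11 for Col12a1 and 0.0662 for Col1a1, so both calls were lost. Both were also lost in odd-numbered libraries alone (0.153 and 0.068), and that of Col12a1 in even-numbered ones (0.247).

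TGF-beta, which Dcn, Bgn, Fmod and Aspn bind, was followed through 24 ligands, receptors and targets. Of these, 3 passed the threshold lower with thymol and 0 higher, around a median of -0.038 log2 units. The thymol mean was lower for 13 of the 24 genes and higher for 11. The ligand gene Tgfb2 went from 6.67 ± 0.13 to 6.09 ± 0.23 log2 CPM (SD, n = 6 each), a fall of 0.58 (limma adjusted p = 1.12e-05) with no overlap between groups. The ligand gene Tgfb3 fell by 0.32 log2 units (limma adjusted p = 0.00466). Tgfbi, a TGF-beta-induced matrix protein, fell by 0.56 log2 units (limma adjusted p = 0.0013). The calls of Tgfb3 and Tgfbi were lost without the variance trend (limma adjusted p = 0.161 and 0.0662), that of Tgfb3 also in even-numbered libraries (0.218) and that of Tgfbi in odd-numbered ones (0.313).

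Of 16 proteases that process or cleave the family, 2 passed the threshold higher with thymol and 2 passed it lower, around a median of 0.014 log2 units. The aggrecanase gene Adamts5 fell by 0.49 ± 0.066 log2 units (SE; limma adjusted p = 8.55e-07), and the related gene Adamts1 fell by 0.34 ± 0.087 (SE; limma adjusted p = 0.0175). Adamts1 missed the threshold when thymol replicate 3 (-0.30, adjusted p = 0.0815) or thymol replicate 6 (-0.25, adjusted p = 0.121) was left out. Mmp12, the macrophage elastase gene, rose by 0.45 ± 0.065 log2 units (SE; limma adjusted p = 5.32e-06), and Ctss, a lysosomal cysteine protease gene of antigen-presenting cells, rose by 0.26 ± 0.046 (SE; limma adjusted p = 0.000141). The groups did not overlap for Adamts5, Adamts1 and Ctss, and overlapped for Mmp12. Without the variance trend, the calls of Mmp12 (limma adjusted p = 0.076), Ctss (0.0782) and Adamts1 (0.269) were lost, and that of Adamts1 was also lost in odd-numbered (0.338) or even-numbered (0.0572) libraries alone.

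Of 14 receptors and receptor partners of the family, 13 were measured. Of these, 3 passed the threshold lower with thymol and 0 higher, with a median of -0.11 log2 units. The thymol mean was lower for 9 of the 13 and higher for 4. Cd14, the co-receptor through which Bgn reaches Toll-like receptors, fell by 0.78 ± 0.080 log2 units (SE; limma adjusted p = 7.32e-10), and Tlr2, one of those receptors, fell by 0.66 ± 0.16 (SE; limma adjusted p = 0.00784). The groups did not overlap for Cd14 and Tlr2, and overlapped for Nlrp3. Nlrp3, the inflammasome sensor, fell by 0.91 ± 0.23 log2 units (SE; limma adjusted p = 0.0175). Its call was lost without DMSO replicate 2 (-0.84, adjusted p = 0.0616), DMSO replicate 4 (-0.76, adjusted p = 0.0907), thymol replicate 1 (-0.77, adjusted p = 0.0549) or thymol replicate 4 (-0.77, adjusted p = 0.0562). It was also lost without the variance trend (limma adjusted p = 0.203) and in odd-numbered (0.319) or even-numbered (0.0792) libraries alone, and the Tlr2 call was lost in odd-numbered libraries (0.513).

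**Figure D3:**
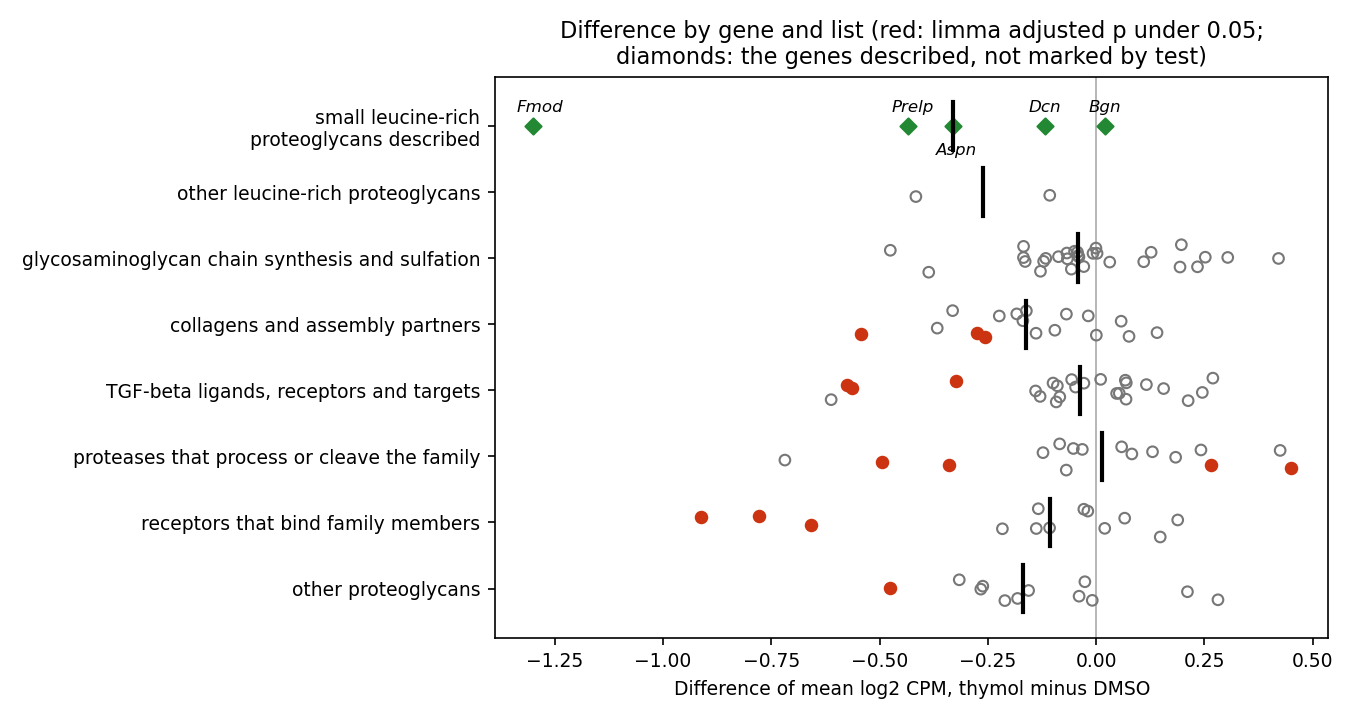
Difference in mean log2 CPM, thymol minus DMSO (horizontal axis), of the 5 genes described (diamonds) and of the genes in 7 lists around them (circles, filled red where the limma adjusted p was under 0.05; bars mark medians). Fmod at -1.30 lies below every gene of the 7 lists, of which Nlrp3 at -0.91 is the lowest. Fmod was chosen on this contrast, so its place is a description.

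Within the groups, the 5 genes did not vary as one. Pearson correlations of deviations from the group mean over the 12 libraries, which share depth and scaling, ran from -0.42 for Prelp and Aspn to 0.54 for Bgn and Prelp. Fmod correlated with Bgn at 0.40, with Dcn at -0.12, with Aspn at 0.036 and with Prelp at 0.0026. Its deviations correlated with the log2 number of reads of the library at 0.57, and those of Bgn and Prelp did so at 0.56 and 0.50. Thymol libraries had the lower median depth, and the part of depth in the Fmod and Prelp differences was not tested.

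Among the 9369 genes with a mean of at least 3 log2 units, the deviations most like those of Fmod were those of U2af1 (r = 0.916), Dpp3 (0.868), Tcf19 (0.865), Kin (0.86) and Hspg2 (0.857), the last of which codes for the basement membrane proteoglycan perlecan. For Dcn the closest genes were Mrc1 (0.879), Plek (0.863) and Pofut2 (0.851), and for Bgn they were Ube2l3 (0.913), Bsg (0.895) and Lsm7 (0.884). For Prelp they were Dcun1d2 (0.88), Fbxo34 (0.858) and Me1 (0.853), and for Aspn they were Spop (0.905), Trappc8 (0.9) and Zfp280c (0.891). These are the highest of 9369 correlations per gene over 12 libraries and are given as descriptions.

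**Figure D4:**
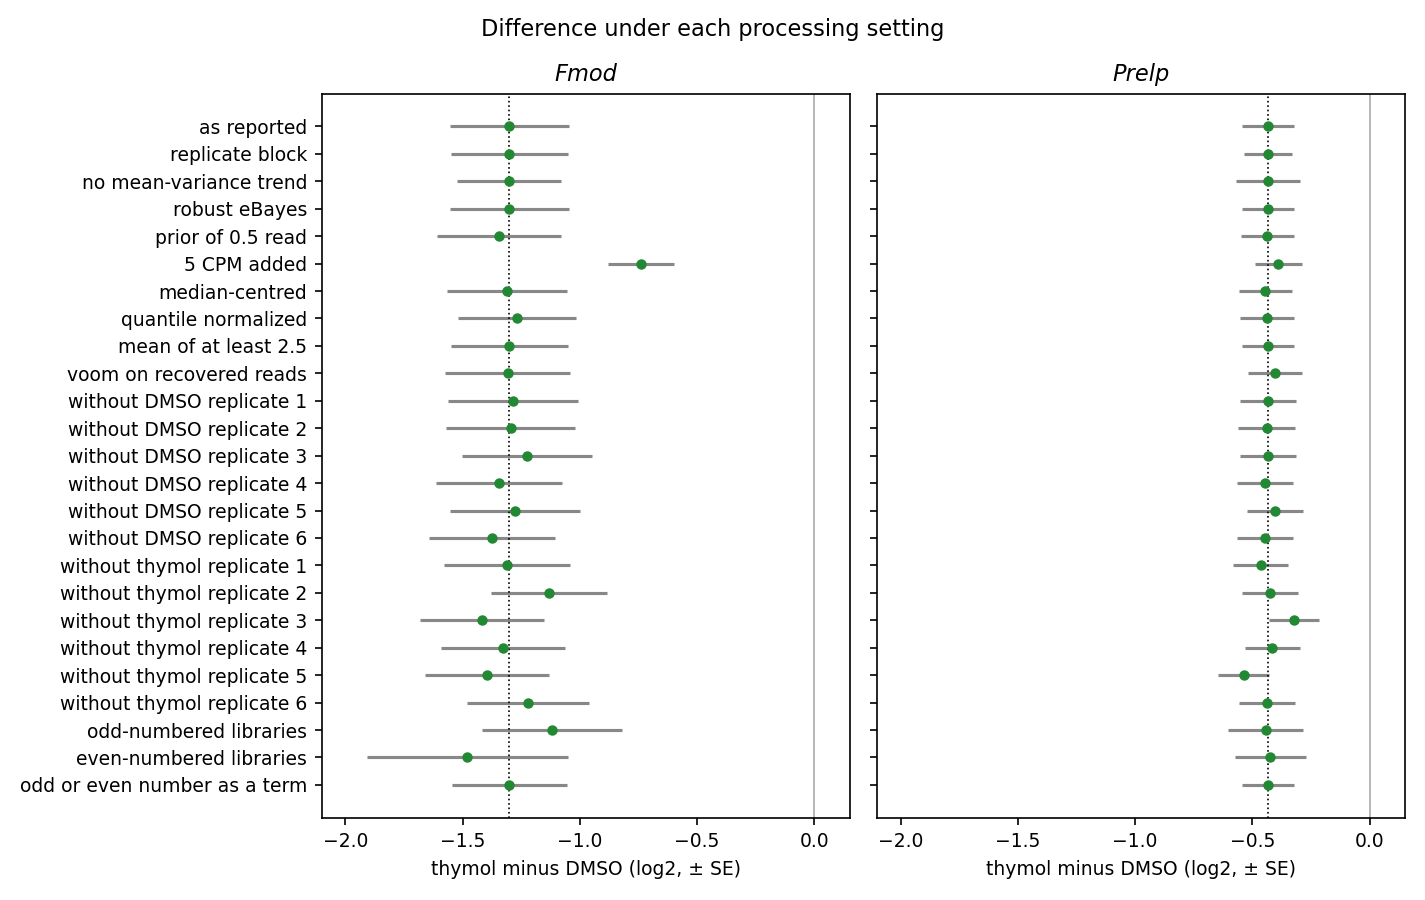
Differences of Fmod (left) and Prelp (right), thymol minus DMSO in log2 units (horizontal axes), under the processing reported (dotted lines) and 24 alternatives; points are estimates and bars are ± SE. Fmod runs from -1.48 in even-numbered libraries to -0.74 with 5 CPM added, and Prelp lies between -0.54 and -0.32, both with 1 thymol library left out.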

How the data were processed

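RNA of 12 MAF libraries, 6 per group by title and treatment label, was sequenced with QuantSeq 3′. The authors aligned reads to GRCm38 with STAR 2.5.3, counted them with HTSeq-count 0.6.1, kept genes with 30 reads in 6 samples, scaled libraries by TMM and tested counts in edgeR. The table they deposited holds log2 CPM with a prior count of about 2 reads, which pulls the differences of scarce genes such as Fmod and Aspn towards 0. Read numbers were recovered from the deposited log2 values: of values below 200 reads, 100.0% came within 0.05 of whole reads. Read totals speak of counting error only, since PCR reads are not independent molecules, while the intervals of the differences come from limma and rest on the spread between libraries.

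The deposited log2 values were fitted in limma 3.58.1 (R 4.3.3; lmFit, then eBayes with trend on, 2 groups), with two-sided p-values adjusted by Benjamini-Hochberg over all 10697 genes and a threshold of 0.05. The script was tested on simulated data. The genes described, the marker and partner lists and the motifs were chosen with earlier results of these data known. From each list, up to 4 genes with the smallest p past the threshold are named, or 2 where none passed. A marker that passed is also named. Likeness is given by the 5 highest correlations for Fmod and the 3 highest for the others. Symbols were matched to GENCODE and RefSeq annotation of GRCm38. Alternatives covered the replicate block, the variance trend, the prior and pseudocount, centring, a filter on low values, voom on recovered reads, and leaving out each library. No genes other than those in the table were analysed here.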

Additional observations from a re-analysis of the deposited data

Results flagged for a closer look

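Prelp in DMSO replicate 5 stood at 5.946 log2 CPM, apart from the next DMSO library at 5.803. The gap was 0.683 of the range of the group, past Dixon's critical value for 6 libraries. It was 1 of 16 groups of libraries examined in this way, and chance marks about 1 in 20.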

How the results depend on the processing

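The Fmod difference was below 0 under all 24 alternatives, and it was -1.12 in odd-numbered libraries alone. The gene was chosen on this contrast, so its sign across refits of the same values is a description. Adding 5 CPM to each value, a pseudocount larger than the thymol level of the gene, brought it to -0.74. The Prelp difference, chosen in the same way, ran from -0.54 to -0.32 when single libraries were left out. The number of genes whose groups did not overlap was 1 to 2 of the 5 when single libraries were left out, with Prelp added without thymol replicate 5, and 2 in even-numbered libraries. In either direction, 180 of all 10697 genes did not overlap as reported, 240 without thymol replicate 5 and 1547 in even-numbered libraries. With fewer libraries per group more genes are apart, so nothing is read from these counts. Over all genes, 238 passed as reported, 57 without the variance trend and 70 in odd-numbered libraries. Deviations from the group mean were compared between libraries over 5394 genes. Those of same-numbered libraries correlated from -0.051 to 0.27, above 0.1 for 2 of 6 numbers. For 2 of 6 thymol libraries the best match was the DMSO library of their own number. The numbers were therefore not taken as pairs. A fit with the replicate block passed 332 genes and left the Fmod difference at -1.30. Thymol libraries held 13 to 54 reads of Fmod, which limits the precision of its difference.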
